A study of Mus musculus with 2 samples.

Results

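Mir185 and Mir1306 are microRNA genes of the mouse Dgcr8 region on chromosome 16, the counterpart of the human region 22q11.2. They were chosen by their gene symbol in GENCODE M21 and are 2 of the 1973 microRNA genes counted. The series holds a single group, hindbrain of B6NCrl mouse embryos at 15.5 days, healthy and of both sexes. It has 2 biological replicates, replicate 1 from the pooled hindbrains of 78 embryos and replicate 2 from those of 62. No other genotype, tissue, age or treatment was analysed here, so the only comparison is that of the replicates. Pooling leaves no view of the spread between single embryos. The RNA was size-selected, with a size range below 30 in the labels, and sequenced as small RNA.

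Most microRNA hairpins are released from a longer transcript by the microprocessor, in which the RNA-binding protein DGCR8 holds the transcript and the nuclease DROSHA cuts it. DICER then trims the hairpin to a mature microRNA, which pairs with messenger RNAs mainly through its seed, bases 2 to 8. Dgcr8 takes its name from the DiGeorge syndrome critical region. Mice that lack 1 copy of the matching chromosome 16 segment have less DGCR8 and lack 1 copy of Mir185, and miR-185 is known in that setting for repressing Emc10, which encodes a subunit of a membrane protein insertion complex. DROSHA and DGCR8 are also known to cut hairpins near the start of the Dgcr8 messenger RNA itself.

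The hairpins are shown because their position differs although both are read from the same strand. They are given 5′ to 3′ from RefSeq on GRCm38.p6, the minus strand of chromosome 16, and the capitals mark the mature arms that RefSeq lists. Mir185 spans chr16:18327401-18327465 and Mir1306 spans chr16:18284239-18284317.
Mir185: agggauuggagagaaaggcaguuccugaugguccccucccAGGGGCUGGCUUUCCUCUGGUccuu
Mir1306: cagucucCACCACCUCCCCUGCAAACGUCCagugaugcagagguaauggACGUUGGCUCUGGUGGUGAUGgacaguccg
Both hairpins were identical to their M21 transcripts. RNAfold gave the Mir185 hairpin of 65 nt a minimum free energy of -37.2 kcal/mol with 26 base pairs. The Mir1306 hairpin of 79 nt had -29.8 kcal/mol with 23 pairs.

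The mature sequences show whether another microRNA could act through the same seed, which is set in capitals.
miR-185-3p: aGGGGCUGgcuuuccucuggu
miR-7048-5p: cGGGGCUGagaggugaggaagc
miR-1306-5p: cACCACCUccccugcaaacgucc
miR-1306-3p: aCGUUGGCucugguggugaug
Among 1738 mature mouse sequences searched, miR-7048-5p alone among those of other genes shared the seed of miR-185-3p. Its gene Mir7048 had 2 reads in replicate 1 and 0 in replicate 2. Neither arm of Mir1306 shared its seed with another gene. The other arm of Mir185, miR-185-5p, is not shown and its seed was not searched. The counts are per hairpin gene, so reads of the 5p and 3p arms cannot be told apart.

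The 2 genes lie in neighbouring hosts but in different parts of them. Mir185 (ENSMUSG00000065464.1) was annotated in the first intron of transcript Tango2-201, 16429 nt from the exon before it and 2950 nt from the exon after it. Tango2, named for transport and Golgi organisation, runs from 18300825 to 18348103 on the minus strand. Mir1306 (ENSMUSG00000080452.2) lay wholly in coding sequence, in exon 2 of Dgcr8, from nucleotide 100 to nucleotide 178 of the coding part of that exon. Dgcr8 runs from 18253948 to 18289246 on the same strand, and 43083 nt separate the 2 microRNA genes.

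**Figure D1:**
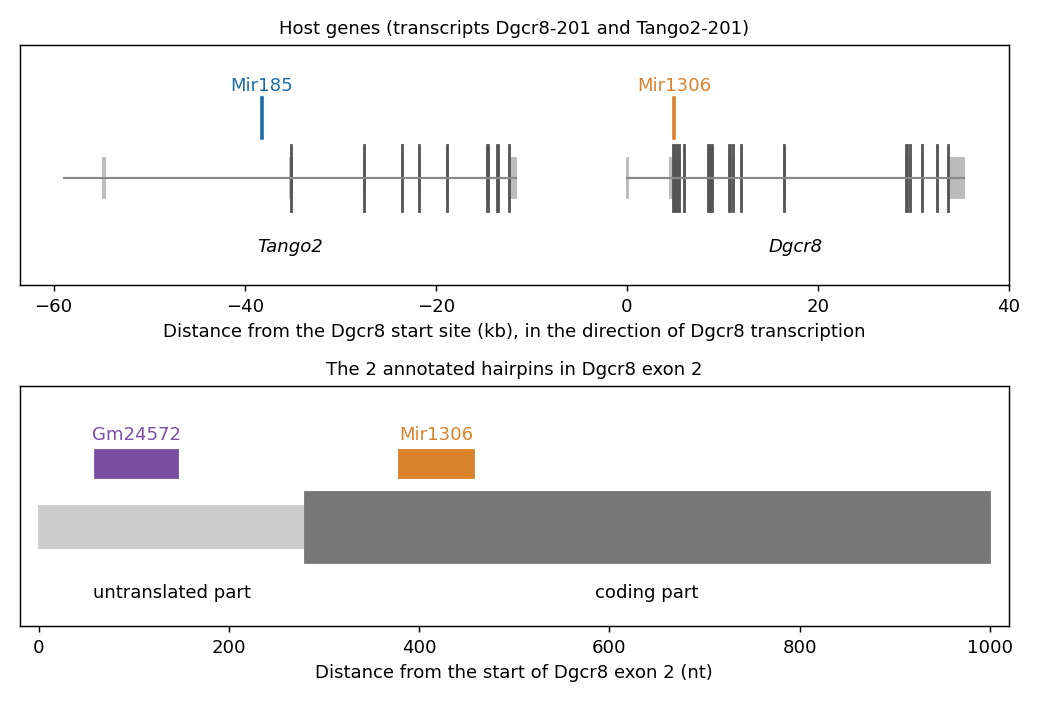
The upper panel shows the host genes by distance from the Dgcr8 start site in kb, with transcribed exons in light grey and coding parts in dark grey, and the lower panel shows Dgcr8 exon 2 in nt. Mir185 sits in an intron of Tango2, while exon 2 of Dgcr8 holds Mir1306 in its coding part and the predicted hairpin Gm24572 in its untranslated part.

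Depth was similar in the libraries. Replicate 1 held 8327917 reads, of which 3937840 fell on the own strand of a microRNA gene, and replicate 2 held 10507754, of which 4839647 did. Levels are given as CPM, the share of these own-strand gene reads in parts per 1000000. They are not divided by hairpin length, since a read here stands for a short RNA cut from the hairpin. An order of genes below refers to reads, as molecules were not counted. Of the 11 neural and hindbrain marker genes 10 had a count. These held 10.3% and 14.4% of the gene reads in replicates 1 and 2. Most of that share was Mir10a, at a mean of 71261 CPM, and Mir10b, at 39376 CPM. At least 10 reads in both libraries were reached by 7 of the 10 genes. Mir124a-1 was among the 7 with only 14 and 21 reads, a mean of 3.95 CPM. Mir124a-2, Mir124a-3 and Mir9-2 stayed at means of 1.90, 2.20 and 2.52 CPM. These low genes share at least 20 nt with another microRNA gene and can lose reads for that reason. Mir128-1, Mir128-2 and Mir9-3 share such a stretch too and stood at 2333, 1305 and 576 CPM. The endothelial marker Mir126a held 2.57% and 2.26%, and markers of choroid plexus, mesenchyme, erythroid cells, leukocytes, liver and striated muscle held at most 0.711% per list. The muscle genes Mir1a-1, Mir133a-1 and Mir133b had no reads.

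Mir185 was present at a middle level in both pools. It had 1861 reads in replicate 1 and 2054 in replicate 2. This came to 473 CPM (exact 95% interval 451 to 495) and 424 CPM (406 to 443). These and all other intervals cover counting error only, with each read taken as independent. The reads carry no molecular identifiers by which that could be checked. The mean was 449 ± 34.1 CPM (SD, n = 2), or 0.0449% of the gene reads. Replicate 1 was the higher, and the intervals do not overlap.

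Among the 702 genes annotated in an intron of a protein-coding gene, of which 365 had any read, Mir185 ranked 55. Over all 721 genes with any read it ranked 126. The 3 genes just above it were Mir501 at 477 ± 15.8 CPM, Mir101a at 460 ± 17.7 CPM and Mir669o at 453 ± 0.458 CPM (SD, n = 2). Each was higher than Mir185 in 1 library and lower in the other, so their order was not separable from the spread between the pools. Mir485 just below, at 441 ± 21.8 CPM, changed sides in the same way. Mir3071 (435 ± 39.3 CPM) and Mir1193 (418 ± 22.7 CPM) were lower than Mir185 in both libraries, and their means lay within 1 SD of its mean. Mir101a and Mir669o share at least 20 nt with another microRNA gene, and reads placed at several loci are counted for no gene, so their levels are uncertain.

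Mir1306 was lower than Mir185 in both pools. It had 688 reads in replicate 1, or 175 CPM (162 to 188), and 812 in replicate 2, or 168 CPM (156 to 180). The mean was 171 ± 4.90 CPM (SD, n = 2), or 0.0171% of the gene reads, and the intervals of the libraries overlap. Its rank was 180. The 3 genes just above were Mir181a-2 at 184 ± 35.8 CPM, Mir496a at 182 ± 10.7 CPM and Mir221 at 177 ± 14.7 CPM, of which only Mir496a exceeded it in both libraries. Mir20b at 167 ± 6.01 CPM, Mir3074-1 at 162 ± 15.3 CPM and Mir155, the immune-cell microRNA, at 159 ± 18.3 CPM lay below it in both. Mir181a-2 and Mir3074-1 share at least 20 nt with another microRNA gene.

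**Figure D2:**
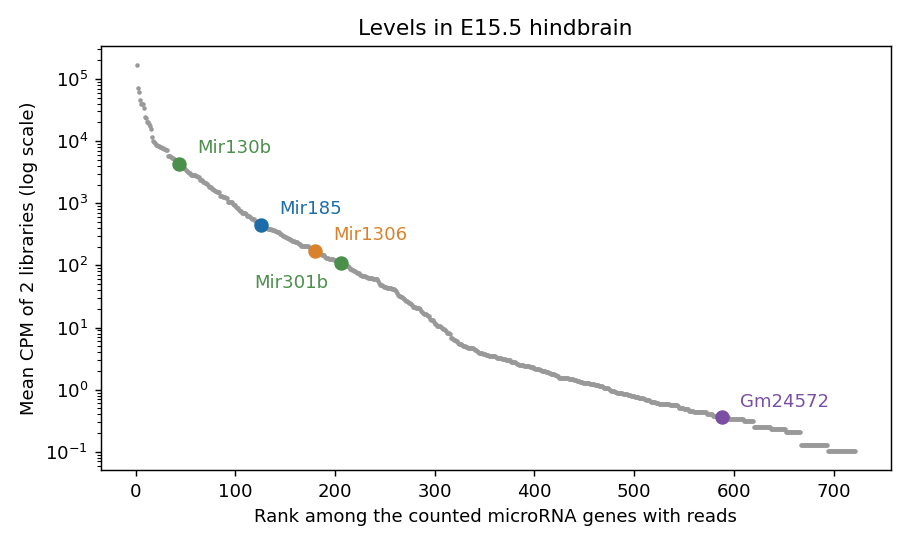
Mean CPM of the 2 libraries on a log axis is plotted against rank for the 721 genes with reads, 1 point a gene. Mir185 stands at rank 126 and Mir1306 at rank 180, between Mir130b and Mir301b of the same part of chromosome 16, and Gm24572 stands at 0.357 CPM.

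Within a library, Mir185 gave 2.70 reads for each read of Mir1306 in replicate 1 (exact 95% interval 2.48 to 2.96) and 2.53 in replicate 2 (2.33 to 2.75). The mean ratio was 2.62 ± 0.124 (SD, n = 2), and the intervals overlap. Mir185 was thus the higher in both pools, by far more than the SD of either gene. With 2 libraries an exact permutation test cannot reach 0.05, and no p-value is given for this order.

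Neither gene had a read on its opposite strand in either library. No stretch of at least 18 nt of the Mir1306 hairpin occurred in any M21 transcript of a gene elsewhere, on either strand. The Mir185 hairpin shared 18 nt, its positions 39 to 56, with the opposite strand of Trim44. No genome sequence was searched, so copies outside the annotated transcripts are not covered.

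The other hairpin annotated in exon 2 of Dgcr8 gave hardly any reads. Gm24572 (ENSMUSG00000093246.1, chromosome 16 from 18284550 to 18284637) is a predicted microRNA gene of 88 nt in the 5′ untranslated part of the exon, 232 nt from Mir1306 and 133 nt before the coding sequence. It had 2 reads in replicate 1 and 1 in replicate 2, at or below the 3 reads that a count of 0 allows. Over both libraries Mir1306 had 1500 reads and Gm24572 had 3, a ratio of 500 (exact 95% interval 171 to 2427). The 2 hairpins lie in the same exon and on the same strand. The numbers of their reads differed far beyond counting error and in the same direction in both pools, and why they differ was not tested. RNAfold gave Gm24572 a minimum free energy of -29.9 kcal/mol with 31 pairs, close to that of Mir1306. Gm24572 shares 18 nt with the opposite strands of Coq9 and Ppp1r3g, the same length that Mir185 shares with Trim44. It shares no stretch of 20 nt with another microRNA gene. A read placed at several loci would be missing from its count, and whether any were was not tested.

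Around the pair, 9 microRNA genes are annotated within 2 Mb on chromosome 16, all of them counted. Of the 7 others, 2 had at least 10 reads in both libraries, 1 had fewer (Gm24572) and 4 had none (Mir6366, Gm26219, Gm23612 and Gm27883). Gm26219 and Gm23612 share at least 20 nt with another microRNA gene and can lose reads for that reason. Mir130b and Mir301b, close neighbours in an intron of 2610318N02Rik, encode related microRNAs. Mir130b had 17831 and 19509 reads, or 4280 ± 351 CPM, and Mir301b had 443 and 529 reads, or 111 ± 2.26 CPM (SD, n = 2). Mir130b gave 9.58 reads per read of Mir185 in replicate 1 and 9.50 in replicate 2. Mir1306 gave 1.55 and 1.53 reads per read of Mir301b. The order Mir130b, Mir185, Mir1306, Mir301b was thus the same in both pools. All genes of the window together held 0.501% ± 0.0393 of the gene reads (SD, n = 2). Mir185 and Mir1306 made up 12.2% of the window's reads in replicate 1 and 12.5% in replicate 2, and Mir130b 85.6% and 85.2%.

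**Figure D3:**
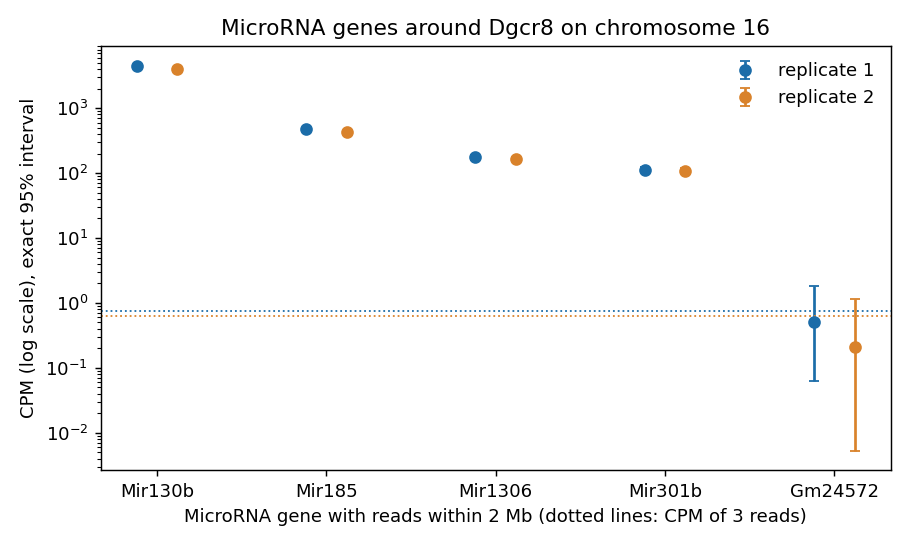
CPM on a log axis is shown for the 5 genes with reads within 2 Mb, in replicate 1 and replicate 2, with exact 95% intervals, and dotted lines mark the CPM of 3 reads in each library. The levels of a gene in the 2 libraries lie close together for the 4 genes above 100 CPM, and Gm24572 lies below the dotted lines in both.

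Mir1306 was among the highest of the microRNA genes in coding exons. Of 21 microRNA genes that lie wholly in coding sequence on their host's strand, 8 had any read and 5 had at least 10 in both libraries, beside 372 of all 1973 genes. By M21 positions, Mir1306 was the third of them. Mir3071, in Rtl1 (an imprinted retrotransposon-derived gene), had 1824 and 1973 reads. Mir671, in Chpf2 (an enzyme of chondroitin synthesis), had 1483 and 1651, or 2.16 and 2.03 reads per read of Mir1306. At the position of Mir3071, M21 also has Mir136 on the opposite strand. The M4 annotation used for counting was not used here, so which of the 2 this row counts was not settled. The row had 0 reads on its opposite strand in both libraries. If it is Mir3071, no read was counted there from the strand of Mir136. If it is Mir136, the count is not of a coding-exon gene on its host's strand. Mir1306 would then stand a place higher in the orders given here. Gm23450, a predicted gene in Cacng8, followed with 106 and 101 reads. Counting untranslated parts of exons too, there were 85 genes, of which 46 had any read, and Mir1306 was the fifth. Above it were Mir21a in Vmp1 (3416 ± 81.9 CPM), Mir324 in Dvl2 (2896 ± 201 CPM), Mir3071 and Mir671. Only protein-coding transcripts were used to place a gene in an exon.

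Between the replicates, Mir185 was called lower in replicate 2 and Mir1306 was not called. The log2 ratio of replicate 2 over replicate 1 was -0.17 for Mir185 (exact 95% interval -0.26 to -0.08). Its adjusted p was 0.00085 in an exact conditional binomial test on TMM-scaled libraries, with Benjamini-Hochberg adjustment over 426 genes and a call at 0.05 or below. This equals a level 1.13-fold higher in replicate 1. For Mir1306 the log2 ratio was -0.08 (-0.22 to 0.07), and the same exact test gave an adjusted p of 0.499. The test compares these 2 libraries, not conditions, and has no replicate check. Of all 426 genes tested, 35.9% were called, 20.7% as lower in replicate 2 and 15.3% as higher, so a call was common and the call of Mir185 is read against that share.

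The call of Mir185 did not outlast an allowance for biological spread. With a coefficient of variation of 0.1 for every gene, edgeR's exact test gave Mir185 an unadjusted p of 0.414 and an adjusted p of 1, and called 1.41% of the genes. Among the 111 tested genes with a mean of 100 to 1000 CPM, the size of the log2 ratio had a median of 0.09 and a quartile range of 0.04 to 0.17. In size, 26 of these genes had a larger log2 ratio than Mir185 and 62 a larger one than Mir1306. Whether the log2 ratios of Mir185 and Mir1306 differ was not tested, and their intervals overlap.

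The log2 ratios of genes nearby and in coding exons are given beside these. Mir130b was at -0.18 (-0.21 to -0.16) and was called lower, and Mir301b at -0.06 (-0.24 to 0.13) was not called. Of the 6 coding-exon genes tested, Mir3071 at -0.20 and Mir671 at -0.16 were called lower in replicate 2, and the count of Mir3071 may be that of Mir136. Gm23450 at -0.38 (-0.79 to 0.02), Mir7654 at -0.19 (-1.50 to 1.13) and Mir7658 at 1.91 (0.07 to 4.35) were not called, the last 2 with at most 14 reads in a library. MicroRNAs made without Dgcr8, whose hairpins arise from transcription ends or from splicing, were set beside them: of 5 listed genes 4 were counted, 2 were called higher in replicate 2 and 0 lower, where 15.3% and 20.7% of all genes tested were. None of these calls held in edgeR's exact test at a coefficient of variation of 0.1. Mir484, with 6957 and 9234 reads, stood at 0.09 (0.05 to 0.14). Mir1224, a microRNA made by splicing, had 216 and 341 reads and was at 0.34 (0.09 to 0.60). Mir320, with 2799 and 3320 reads, was at -0.07 (-0.14 to 0.00), and Mir877, with 303 and 439 reads, at 0.22 (0.01 to 0.44), and neither was called. The median log2 ratio of the 4 genes was 0.16, against -0.01 over all genes tested. In level, Mir484 gave 3.74 reads per read of Mir185 in replicate 1 and 4.50 in replicate 2.

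**Figure D4:**
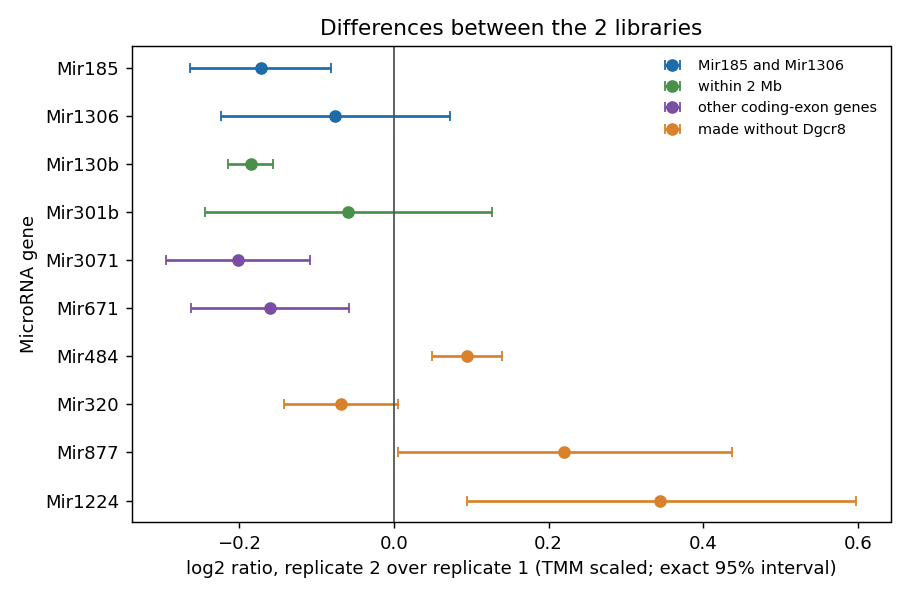
The log2 ratio of replicate 2 over replicate 1 after TMM scaling is shown for 10 genes, with exact 95% intervals of counting error. The interval of Mir185 lies below 0 and that of Mir1306 spans 0. Of the 4 genes made without Dgcr8 the intervals of Mir484, Mir877 and Mir1224 lie above 0 and that of Mir320 spans 0. Mir877 was not called after adjustment.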

How the data were processed

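Small RNA of 2 pooled hindbrain libraries was analysed from the tables of read counts that the authors deposited, on build mm10 and annotation M4 (per the deposited notes). Which aligner and counter made them is not stated in those notes or in the labels. Each table holds 1973 gene rows with counts for both strands, and for each single strand, and 4 rows of reads that name no gene, which were left out of library sizes. These held 35.4% and 34.2% of reads placed at several loci, 13.7% and 15.8% unmapped and 2.56% and 2.96% outside genes. The tables have no header line, and the first single-strand column, which holds nearly all gene reads, was used as own strand. Symbols, positions and hosts came from GENCODE M21 on the same build, by identifier without version, for 1894 identifiers. Versions of the identifiers of both genes differ between the tables and M21, and M4 positions were not compared.

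Library ratios were computed on genes reaching 10 reads in either library, after TMM scaling in edgeR 4.0.16, with exact conditional binomial tests (scipy 1.17.1) and Benjamini-Hochberg adjustment at 0.05, since 1 library a side leaves no residual spread to fit. The procedure was tested on simulated counts that had counting error only, so that test does not cover spread between libraries. Alternatives were DESeq2 1.42.0 size factors, total counts, both strands, other count minimums, each library alone and edgeR's exact test at a preset coefficient of variation of 0.1 or 0.2. Shares have exact Clopper-Pearson 95% intervals. Hairpins were folded with ViennaRNA 2.7.2. Besides Mir185 and Mir1306, the genes named are those within 2 Mb, the 3 nearest in mean CPM on each side, the 5 highest in exons of protein-coding transcripts, those sharing a seed, and a list of genes made without Dgcr8, of which Mir1839 had no count row. Gm23450, Mir7654 and Mir7658 were named after their values were seen. The genes and lists were chosen with earlier results of these data known.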

Additional observations from a re-analysis of the deposited data

How the results depend on the processing

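The log2 ratio of Mir185 stayed negative and past the threshold under DESeq2 size factors, total counts, both strands and both other count minimums, and over all 7 alternatives it ran from -0.17 to -0.14, with adjusted p-values from 0.00154 to 1. With a coefficient of variation of 0.1 or 0.2 in edgeR's exact test, it was -0.17 with an adjusted p of 1 and no longer called, since these settings allow spread beyond counting error. Mir1306 ran from -0.08 to -0.04 and was called under none of these settings, with adjusted p-values from 0.551 to 1 over the alternatives. The number of genes called was 153, and 137 to 163 under the other scalings, strands and minimums. It was 6 at a coefficient of variation of 0.1 (32 at an unadjusted p under 0.05) and 0 at 0.2 by edgeR's exact test (12 unadjusted). Of the called genes 42.5% were higher in replicate 2, and 52.6% when genes with 1 read were admitted. Scaled by all reads of the library in place of gene reads, Mir185 stood at 209 CPM and Mir1306 at 79.9 CPM. The levels without 1 replicate ran from 424 to 473 CPM for Mir185 and from 168 to 175 CPM for Mir1306, and their ratio from 2.53 to 2.70. No paired analysis was possible because there is 1 group. Depth limits Gm24572, with 3 reads in all.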
